A study of Equus caballus with 10 samples.

Results

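Cartilage miR-140 was followed through its 2 arms, eca-miR-140-3p and eca-miR-140-5p, which were taken by name from the 239 miRNAs counted in each of 10 small RNA libraries. The libraries held RNA recovered by 5-EU capture from horse joint cells after exposure to extracellular vesicles (EVs). In 9 libraries the EVs came from cells labelled with 5-EU. EV-recipient synoviocytes from 4 horses were kept at 25% oxygen and received EVs pooled from the chondrocytes of 8 horses. EV-recipient chondrocytes from 5 horses were kept at 5% oxygen and received EVs pooled from the synoviocytes of 9 horses. In both groups the donor cells had been grown with 5-EU for 48 h before each collection of media, and the recipient cells were exposed for 24 h. 5-EU (5-ethynyl uridine) replaces uridine in newly made RNA and offers a handle through which that RNA can be biotinylated and pulled out on beads. The cells were primary cultures from macroscopically scored fetlock joints, and age and sex were not given by library. The tenth library was titled as a synoviocyte but carries the name SynoviocyteNEG among the groups of the deposited tables. In the study's figures the name SynoviocyteNEG stands for its EV-recipient synoviocyte control, exposed to EVs from chondrocytes grown without 5-EU. As the sample labels do not name the tenth library as a control, its values are given alone and it entered no comparison.

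miR-140 is known as a cartilage miRNA. In mouse and human it is processed from a hairpin within an intron of WWP2, which encodes a ubiquitin ligase, and its transcription in chondrocytes is driven by SOX9, the transcription factor that specifies cartilage. Loss of miR-140 in mice shortens the skeleton and leads to early degeneration of articular cartilage. Both strands of the hairpin are loaded into Argonaute in human and mouse chondrocytes. The 5p arm is known to act on the aggrecan-degrading protease ADAMTS5 and on the histone deacetylase HDAC4, and the 3p arm, with another seed, has its own targets.

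Depth, counted as the miRNA reads of a library, ran between 17151 and 436475 in EV-recipient synoviocytes and between 4891 and 444408 in EV-recipient chondrocytes, and was 20330 in the unassigned library. Values are in RPM, reads per 1000000 miRNA reads of the library, with spike-ins left out. A count of 3, taken as the limit that a count of 0 allows, stands for 6.87 RPM in the deepest EV-recipient synoviocyte library, 175 RPM in the shallowest, and 613 RPM in the shallowest EV-recipient chondrocyte library. All intervals are at 95% confidence and cover counting error only, because no molecular identifiers are described for these libraries and PCR copies may be counted more than once. Each library is a separate recipient horse, while the EVs were pooled, so p-values measure the spread between recipient horses and not between EV preparations.

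miR-140 was scarce in EV-recipient synoviocytes and readily counted in EV-recipient chondrocytes. Thus the cartilage miRNA was low in the libraries whose EVs came from chondrocytes and high in those whose recipient cells were chondrocytes. Recipient cell type, EV source and oxygen changed together in this design, and their parts cannot be told apart. Nor can a smaller share of cells that hold miR-140 be told apart from less miR-140 per cell.

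eca-miR-140-3p had 0, 9, 2 and 0 counts in EV-recipient synoviocyte replicates 1 to 4, against 1, 835, 111, 235 and 88 counts in EV-recipient chondrocyte replicates 1 to 5. These are 0, 46.8, 62.0 and 0 RPM in EV-recipient synoviocytes, against 204, 1879, 2797, 825 and 892 RPM in EV-recipient chondrocytes. Every EV-recipient synoviocyte library lay below every EV-recipient chondrocyte library, although the lowest EV-recipient chondrocyte value rests on a single read, with a Wilson interval of 36.1 to 1160 RPM. Means were 27.2 ± 32.0 RPM (SD, n = 4) in EV-recipient synoviocytes and 1320 ± 1020 RPM (SD, n = 5) in EV-recipient chondrocytes.

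In the deep libraries the counts of EV-recipient synoviocytes lay far below what the level of EV-recipient chondrocytes would give at their depth. At 892 RPM, the median of EV-recipient chondrocytes, EV-recipient synoviocyte replicate 1 would have held 390 reads of eca-miR-140-3p and held none, which allows up to 6.87 RPM. Replicate 2 would have held 172 reads and held 9. In the shallower replicates 3 and 4 the same level corresponds to 28.8 and 15.3 reads, where 2 and 0 were counted. In EV-recipient chondrocyte replicate 1 it corresponds to only 4.36 reads, so this library says little about either arm.

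eca-miR-140-5p had 27, 26, 0 and 0 counts in EV-recipient synoviocytes, against 0, 612, 40, 265 and 135 counts in EV-recipient chondrocytes. In RPM it stood at 61.9, 135, 0 and 0 in EV-recipient synoviocytes, against 0, 1377, 1008, 931 and 1369 in EV-recipient chondrocytes. The groups overlapped only through EV-recipient chondrocyte replicate 1, whose count of 0 allows up to 613 RPM. Means were 49.3 ± 64.3 RPM (SD, n = 4) in EV-recipient synoviocytes and 937 ± 562 RPM (SD, n = 5) in EV-recipient chondrocytes. Among the 4 deeper EV-recipient chondrocyte libraries the 5p arm was the steadier of the pair, spanning 931 to 1377 RPM, while the 3p arm spanned 825 to 2797 RPM.

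**Figure D1:**
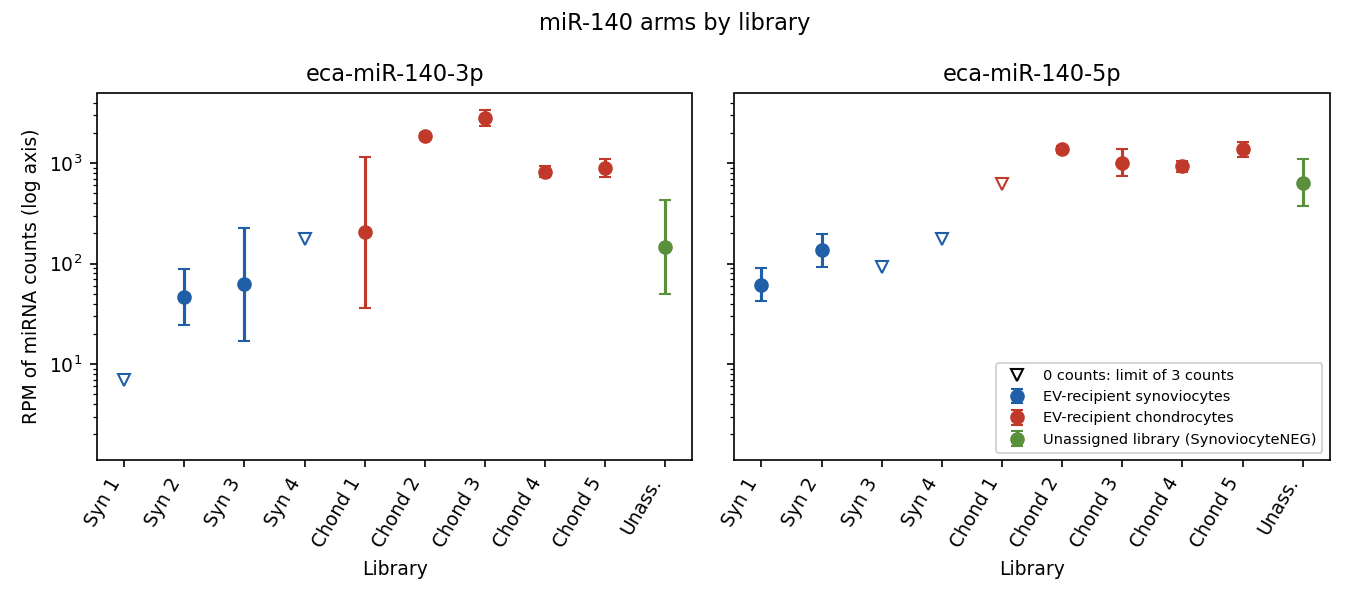
RPM of each miR-140 arm (log axis) in the 4 EV-recipient synoviocyte libraries (Syn), the 5 EV-recipient chondrocyte libraries (Chond) and the unassigned library (Unass.). Points are deposited RPM, bars are 95% Wilson intervals, and open triangles mark the limit of 3 counts in libraries with 0 counts. For the 3p arm, EV-recipient synoviocyte replicate 1 allows at most 6.87 RPM, while EV-recipient chondrocyte replicates 2 to 5 lie between 825 and 2797 RPM.

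The difference between recipient cell types was tested in edgeR's quasi-likelihood model with TMM normalization, fitted to the 100 miRNAs that passed edgeR's filter on low counts. The study's own filter asks for 2045 RPM in at least 2 libraries and leaves out both arms, since the 3p arm reached that level in 1 library and the 5p arm in none. The 3p arm passed edgeR's filter only through EV-recipient chondrocytes, so it had to differ to enter the test. In raw counts, 4 EV-recipient chondrocyte libraries held at least 10 and no EV-recipient synoviocyte library did. The filter itself sets its limit on counts scaled to library size, so raw tallies do not show which libraries met it. With no filter, over all 239 miRNAs, the log2 fold change of the 3p arm was -5.68 with an adjusted p = 7.15e-05 from edgeR. For the 5p arm 2 EV-recipient synoviocyte and 4 EV-recipient chondrocyte libraries held at least 10 counts. With EV-recipient synoviocyte replicates 3 and 4 at 0, this arm too could not pass without EV-recipient chondrocytes. Its p-value in the filtered set carries the same selection.

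eca-miR-140-3p was lower in EV-recipient synoviocytes with -5.66 ± 1.31 (standard error) as its log2 fold change, at an adjusted p = 0.0157 in the edgeR fit. No other of the 100 tested miRNAs had a lower log2 fold change. With no filter some scarce miRNAs were lower, among them eca-miR-122 at -7.74 (adjusted p = 0.0300, edgeR). Calls at an adjusted p under 0.05 made up 5% of the 100 miRNAs, 4% on the low side and 1% on the high side. This split changed with the setting, as DESeq2 called 5 lower and 6 higher of 100. With no filter edgeR called 7 lower and 7 higher of 239, and with at least 10 counts summed 6 lower and 6 higher of 193. For eca-miR-140-5p the log2 fold change was -3.84 ± 1.13 (standard error), the third lowest, with an unadjusted p = 0.00358 and an adjusted p = 0.0596 in the same edgeR fit, so that it did not pass. At an unadjusted p under 0.05, which both arms reached, 17% of the 100 miRNAs were called, 10% on the low side and 7% on the high side. The median log2 fold change of all tested miRNAs was 0.12.

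Both calls depended on single libraries and on the scale. Without EV-recipient chondrocyte replicate 2, the deepest library and the one with most miR-140 reads, the 3p arm had a log2 fold change of -5.49 and an adjusted p = 0.0858 in edgeR. Without EV-recipient chondrocyte replicate 1, the shallowest library, the 5p arm had a log2 fold change of -4.06 and an adjusted p = 0.00845 in edgeR. With spike-in counts as library size, adjusted p was 0.997 for both arms in edgeR, at log2 fold changes of -6.48 for 3p and -3.93 for 5p.

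**Figure D2:**
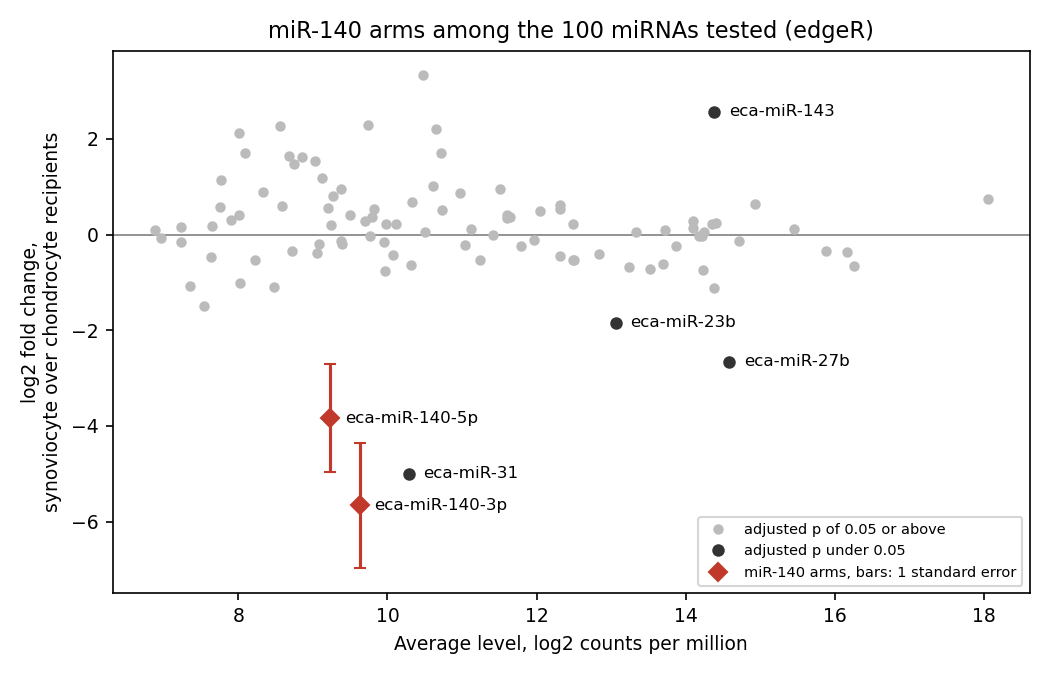
The log2 fold change of EV-recipient synoviocytes over EV-recipient chondrocytes against the average level (log2 CPM, counts per 1000000) for the 100 miRNAs tested with edgeR. Red diamonds are the miR-140 arms with bars of 1 standard error, and dark points passed an adjusted p under 0.05; the 3p arm also passed and lies lowest, at -5.66.

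Fitted fold changes of such low counts depend on the prior count of the model, so counts were also summed over libraries. eca-miR-140-3p had 11 counts of 678177 in EV-recipient synoviocytes and 1270 of 872370 in EV-recipient chondrocytes, or 16.2 and 1456 RPM. The ratio was 0.0111, with an exact interval of 0.00555 to 0.0200. eca-miR-140-5p had 53 counts in EV-recipient synoviocytes and 1052 in EV-recipient chondrocytes, or 78.2 and 1206 RPM, with a ratio of 0.0648 and an exact interval of 0.0482 to 0.0854. These sums weight libraries by depth, and the intervals leave out the spread between horses. EV-recipient synoviocyte replicate 2 held 9 of the 11 reads of eca-miR-140-3p, and without it the ratio was 0.00283, while without the deepest replicate 1 it was 0.0313, both outside the printed interval. For eca-miR-140-5p the ratio was 0.0461 without replicate 2 and 0.0892 without replicate 1, both also outside its printed interval.

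With both arms added, miR-140 stood at 61.9, 182, 62.0 and 0 RPM in EV-recipient synoviocytes, against 204, 3256, 3805, 1756 and 2261 RPM in EV-recipient chondrocytes. The groups did not overlap, but this rests on 1 read in EV-recipient chondrocyte replicate 1. Its 204 RPM has a Wilson interval of 36.1 to 1160 RPM, against 131 to 253 RPM for the 182 RPM of EV-recipient synoviocyte replicate 2. Among the 100 tested miRNAs taken singly, the groups did not overlap with EV-recipient synoviocytes on the low side for 6%, one of which was the 3p arm, and for 11% in either direction. On log2(RPM + 10) the mean was 5.81 ± 1.79 (SD, n = 4) in EV-recipient synoviocytes and 10.7 ± 1.68 (SD, n = 5) in EV-recipient chondrocytes, a difference of -4.84 (exact permutation test over samples, two-sided, p = 0.0159, where the smallest possible is 0.00794). Without the shallow EV-recipient chondrocyte replicate 1 the difference was -5.57 (exact permutation test, p = 0.0286).

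Relative to the spike-in calibrators, which were added before library preparation, the separation was less complete. Both arms together came to 154, 171, 14.8 and 0 RPM of spike-in reads in EV-recipient synoviocytes, against 2.74, 7660, 1180, 2530 and 868 in EV-recipient chondrocytes. EV-recipient chondrocyte replicate 1, with 0.0134 miRNA reads per spike-in read, fell among the EV-recipient synoviocytes on this scale. The difference on log2 of these values plus 10 was -3.87 (exact permutation test over samples, two-sided, p = 0.103). The other 4 EV-recipient chondrocyte libraries remained above every EV-recipient synoviocyte library.

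miR-140 was a miRNA of middling rank even where it was high. In EV-recipient chondrocyte replicates 2 to 5 the 3p arm ranked 45th, 38th, 61st and 60th by count, and the 5p arm 50th, 56th, 59th and 51st, among 121 to 176 miRNAs detected per library. In EV-recipient synoviocyte replicates 1 and 2, with 175 and 152 miRNAs detected, the 5p arm ranked 114th and 100th.

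The balance of the 2 arms varied between libraries. In EV-recipient chondrocytes the ratio of 3p to 5p reads was 1.36 (exact interval 1.23 to 1.52) in replicate 2, 2.77 (1.92 to 4.09) in replicate 3, 0.887 (0.741 to 1.06) in replicate 4 and 0.652 (0.493 to 0.859) in replicate 5. Thus the 3p arm led in replicates 2 and 3 and the 5p arm in replicate 5, with intervals that do not overlap between them, and replicate 4 lay near parity. These intervals leave out PCR copying, and each horse gave 1 library, so the difference between libraries was not tested. The 3p share of miR-140 reads was 57.7%, 73.5%, 47.0% and 39.5% in these libraries.

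In EV-recipient synoviocytes the reads that were counted came mostly from the 5p arm. Replicate 1 had none of 27 reads from the 3p arm (exact interval of the share 0 to 12.8%), and replicate 2 had 9 of 35, a share of 25.7% (12.5 to 43.3%) and a ratio of 0.346 (0.143 to 0.762). Replicate 3 had 2 reads and replicate 4 none, which is too few for a ratio, as was the single read of EV-recipient chondrocyte replicate 1. Over the libraries with at least 10 reads from both arms, the mean of log2((3p + 0.5)/(5p + 0.5)) was -3.63 ± 3.04 (SD, n = 2) in EV-recipient synoviocytes and 0.28 ± 0.90 (SD, n = 4) in EV-recipient chondrocytes.

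Both EV-recipient synoviocyte ratios lay below all 4 EV-recipient chondrocyte ratios, but the exact permutation test used here cannot pass a threshold of 0.05 at this number of libraries. The difference was -3.91, with an exact permutation p = 0.0667 (two-sided), the smallest that 2 against 4 libraries allow. It rests largely on EV-recipient synoviocyte replicate 1, whose 3p count of 0 makes its value depend on the added 0.5. Without it the difference was -1.76, and without replicate 2 it was -6.06. With all reads summed, the 3p arm made up 17.2% of miR-140 reads in EV-recipient synoviocytes (exact interval 8.90 to 28.7%) and 54.7% in EV-recipient chondrocytes (52.6 to 56.7%).

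**Figure D3:**
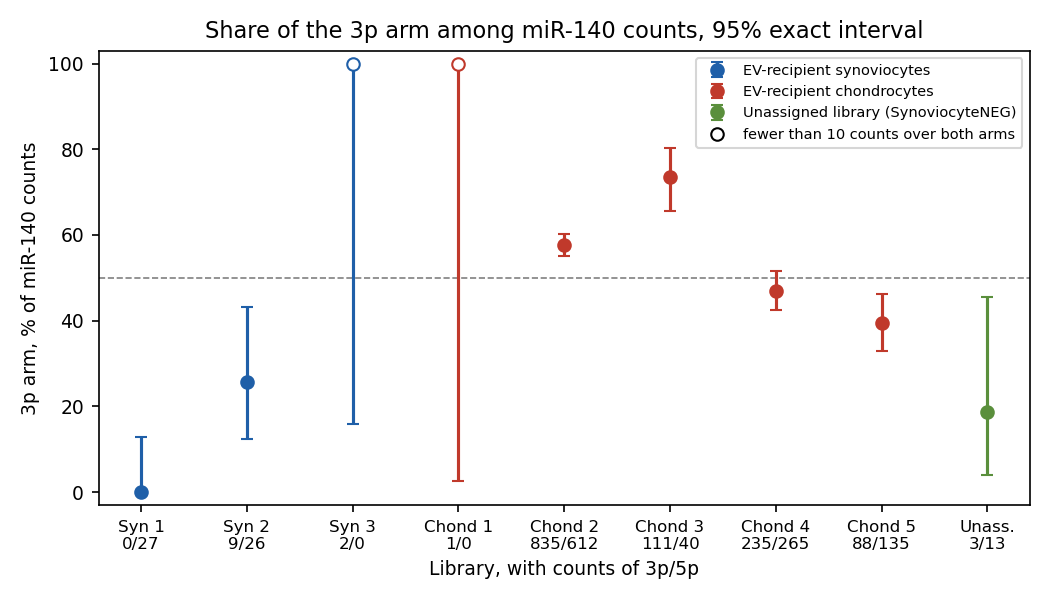
Share of the 3p arm in percent of miR-140 reads for each library with any miR-140 read, with the reads of 3p and 5p under each name and 95% exact intervals as bars. Open points have fewer than 10 reads over both arms. EV-recipient chondrocyte replicates 2 to 5 span 39.5% to 73.5%, and EV-recipient synoviocyte replicates 1 and 2 lie at 0% and 25.7%.

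Of 22 miRNAs with rows for both arms, 16 had at least 10 reads over both in at least 4 of the 9 labelled libraries. miR-140 stood 11th of these by its mean log2 ratio of 3p to 5p, at -1.02 ± 2.53 (SD, n = 6), between miR-362 at -0.55 and miR-199a at -1.20. The range ran between 6.25 for miR-502, whose 3p arm dominates, and -6.57 for miR-125a, whose 5p arm dominates. miR-140 had the third largest spread between libraries, after miR-361 and miR-362. Both its mean and its spread include EV-recipient synoviocyte replicate 1 at -5.78, where the 3p count was 0. By contrast, miR-199a, counted at high depth in all 9 libraries, held a mean of -1.17 in EV-recipient synoviocytes and -1.23 in EV-recipient chondrocytes, with an SD of 0.25. Its 3p arm and eca-miR-199b-3p had nearly the same log2 fold change in edgeR (-0.525 and -0.530), so their rows may share reads. The ratio may therefore not be of miR-199a alone.

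**Figure D4:**
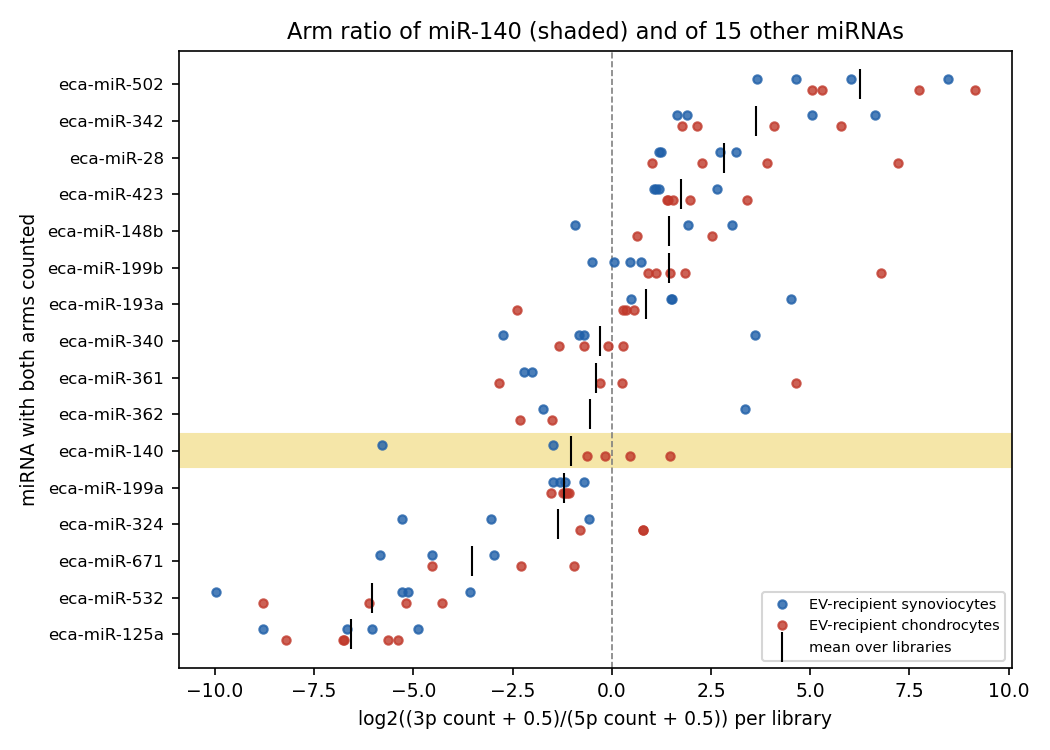
log2 ratio of 3p to 5p reads, with 0.5 added to each, per library for the 16 miRNAs with both arms counted, ordered by their mean (black bars), with EV-recipient synoviocytes in blue and EV-recipient chondrocytes in red. In the shaded row, miR-140 spans -5.78 to 1.46, with both EV-recipient synoviocyte points to the left of the EV-recipient chondrocyte points.

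The miRNAs whose RPM ran most like each arm were sought over the 9 labelled libraries, among miRNAs counted in at least 7 of them. For eca-miR-140-3p these were eca-miR-221 (Spearman's rho = 0.795), eca-miR-27b (0.753), eca-miR-23b (0.703), eca-miR-22 (0.686) and eca-miR-196b (0.678). eca-miR-140-5p itself, counted in 6 of the 9, reached 0.749 with the 3p arm. For eca-miR-140-5p, eca-miR-10b, eca-miR-196b and eca-miR-29b each had a rho of 0.865, followed by eca-miR-28-3p at 0.797 and eca-miR-503 at 0.783. The least alike were eca-miR-21 for the 3p arm, at -0.912, and eca-miR-181b for the 5p arm, at -0.763. These values describe 9 points that share library and depth, and the shallow libraries put many miRNAs at 0 together.

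eca-miR-27b and eca-miR-23b are encoded next to each other, and the miR-27 family is known to act on the collagenase MMP13 in human chondrocytes. eca-miR-27b averaged 5862 ± 2135 RPM (SD, n = 4) in EV-recipient synoviocytes and 40660 ± 8945 RPM (SD, n = 5) in EV-recipient chondrocytes, with a log2 fold change of -2.66 (adjusted p = 4.89e-05 in edgeR). Over the labelled libraries eca-miR-27b was thus far more abundant than either miR-140 arm, and its log2 fold change was smaller in size.

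Other miRNAs known to act in chondrocytes gave a mixed picture. Of a list of 19, chosen with earlier results of these data known, 18 had rows and 16 were tested. In edgeR at an adjusted p under 0.05, 2 of them fell in EV-recipient synoviocytes, eca-miR-27b and eca-miR-23b (eca-miR-23b with a log2 fold change of -1.85 and an adjusted p = 0.0157) and none rose. These are 12.5% of the 16, beside 4% on the low side over all 100 miRNAs, which include these 2. As the list was chosen with earlier results known, such shares are no test of it. At an unadjusted p under 0.05 the list had 4 on the low side (25.0%, beside 10%) and 1 on the high side (6.25%, beside 7%). The median log2 fold change of the 16 was -0.42, beside 0.12 over all 100 miRNAs. eca-miR-27a (-0.73) and eca-miR-199a-5p (-0.62) had an unadjusted p under 0.05 on the low side and did not pass adjustment. eca-miR-146a, which damps inflammatory signaling, had a log2 fold change of 2.28 and an adjusted p = 0.177 from edgeR. The abundant eca-miR-23a and eca-miR-29a, of which miR-29a is known to act on collagen transcripts, stood at -0.14 and 0.14 with an adjusted p = 0.892 each from edgeR. eca-miR-455 and eca-miR-675, also known from cartilage, had no rows among the 239 miRNAs, so they could not be compared. Of 5 cartilage miRNAs listed, 2 had rows, and these were the arms of miR-140.

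Markers of other cell types varied between libraries. Of 7 blood-cell miRNAs, 6 had rows, and they summed to between 55.0 and 17025 RPM in EV-recipient synoviocytes and between 45.6 and 3679 RPM in EV-recipient chondrocytes. Both endothelial arms of miR-126 were at 0 in every EV-recipient chondrocyte library and reached at most 93.0 RPM in EV-recipient synoviocytes. The hepatic eca-miR-122 was at 0 in EV-recipient synoviocytes and reached at most 470 RPM in EV-recipient chondrocytes. Of 7 epithelial miRNAs, 2 had rows, and they summed to at most 1399 RPM in EV-recipient synoviocytes, from eca-miR-200c in 1 library, and to at most 204 RPM in EV-recipient chondrocytes, where eca-miR-200c was at 0 throughout. Of 4 muscle miRNAs, 2 had rows, and they summed to at most 124 RPM in EV-recipient synoviocytes and 71.0 RPM in EV-recipient chondrocytes. The part of these cells in the miR-140 difference was not tested.

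The unassigned library, SynoviocyteNEG in the tables, held 3 reads of eca-miR-140-3p and 13 of eca-miR-140-5p in 20330 miRNA reads. These are 148 RPM (Wilson interval 50.2 to 434) and 639 RPM (374 to 1090). For the 5p arm the interval lies above those of the labelled EV-recipient synoviocyte libraries, whose highest upper limit was 198 RPM. It overlaps that of EV-recipient chondrocyte replicates 3 and 4 and the limit of replicate 1, and lies below those of replicates 2 and 5. For the 3p arm it overlaps both EV-recipient synoviocyte replicates that had reads, and EV-recipient chondrocyte replicate 1. Its 3p share was 18.8% (exact interval 4.05 to 45.6%), which overlaps those of EV-recipient synoviocyte replicates 1 and 2 and of EV-recipient chondrocyte replicates 4 and 5. In the same library eca-miR-27b stood at 51746 RPM and eca-miR-23b at 15347 RPM, both above their means in EV-recipient chondrocytes. The unassigned library gave 0.0786 miRNA reads per spike-in read, against 0.0634 to 2.49 in EV-recipient synoviocytes and 0.0134 to 2.35 in EV-recipient chondrocytes. Both miR-140 arms together came to 61.9 RPM of spike-in reads in it, against 0 to 171 and 2.74 to 7660 in these groups. Being 1 library in no labelled group, it was not tested against the others.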

How the data were processed

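The authors trimmed reads with cutadapt 3.3 after quality control in FastQC 0.11.9 and MultiQC 1.10, and mapped them with Bowtie 1.3.0 and miRDeep2 to the horse genome and then to the horse entries of miRBase, allowing mismatches. They deposited raw counts for 239 miRNAs and 8 spike-in calibrators. The deposited RPM matched counts divided by the library's miRNA total to within 0.041% (values of at least 10 counts). How reads shared between near-identical miRNAs were counted is not given in the sources used here. With no genome or miRNA table in use, no sequences or coordinates are given.

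Counts of 9 labelled libraries were tested with edgeR 4.0.16 in R 4.3.3 (TMM, quasi-likelihood, filterByExpr, Benjamini-Hochberg), after checking on simulated data. Alternatives used DESeq2 1.42.0 and limma 3.58.1. Shares and RPM have 95% Wilson or Clopper-Pearson (exact) intervals, and per-library values were compared by exact permutation in Python 3.11.15 with scipy 1.17.1. Standard errors are the log2 fold change over the root of F. Named miRNAs were both arms, the list members with an unadjusted p under 0.05 or among the 4 most abundant, the 5 most alike by rank correlation, and arm pairs next to miR-140 or at the ends. Members and lists were chosen with earlier results of these data known. Libraries were grouped by their titles. The library named SynoviocyteNEG in the tables was left out of every test.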

Additional observations from a re-analysis of the deposited data

Results flagged for a closer look

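In the unassigned library, which no comparison used, eca-miR-140-5p reached 639 RPM from 13 reads, above the 148 RPM that a count of 0 allows there. eca-miR-140-3p, with 3 reads, did not exceed it. In no group did the gap of the highest or lowest library to its nearest neighbour, as a share of the range, pass Dixon's 95% critical value. It came closest for eca-miR-140-5p in EV-recipient chondrocyte replicate 1, at 0.676 against 0.71, where the count was 0.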

How the results depend on the processing

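Every alternative left both arms, their sum and the arm ratio lower in EV-recipient synoviocytes. For eca-miR-140-3p the log2 fold change was -7.01 with limma on log2(RPM + 1) (adjusted p = 0.0864), -6.02 with the replicate block (adjusted p = 0.0924, edgeR) and -6.48 with spike-in counts as library size (adjusted p = 0.997, edgeR), none of which kept it under 0.05. The other 7 alternatives kept the call. For eca-miR-140-5p the adjusted p came under 0.05 with library size only (-3.94), no filter (-3.95), at least 10 counts summed (-3.92), robust estimation (-3.84) and DESeq2 (-3.90), and stayed above it with the other 5, among them the replicate block at -3.95 (adjusted p = 0.592, edgeR). Same-numbered libraries correlated between -0.145 and 0.308 in their deviations, so the numbers are not taken to pair horses. The sum of both arms differed by -3.87 on the scale of spike-in reads (exact permutation p = 0.103). The arm ratio differed by -2.19 with a minimum of 1 read and by -1.76 with 30.

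The number of miRNAs called at an adjusted p under 0.05, 5 of 100 here, was 14 of 239 with no filter and 12 of 193 with at least 10 counts summed. Of 100 miRNAs, DESeq2 called 11, limma on log2(RPM + 10) 2, limma on log2(RPM + 1) 1 and the replicate block 2. Spike-in counts in edgeR gave 0 of 100, where 1 had an unadjusted p under 0.05. The causes were not tested, except that fewer or more miRNAs entered some fits. Leaving out each library in turn gave -6.72 to -4.99 for the 3p arm, -4.53 to -3.57 for the 5p arm, 1 to 7 calls, -6.06 to -1.76 for the arm ratio and -5.57 to -4.01 for the sum. The ratio of summed RPM, an alternative chosen after seeing the data, ran between 0.00283 and 0.0313 for 3p and between 0.0461 and 0.0892 for 5p. The count was 1 without EV-recipient chondrocyte replicate 2, 2 without replicate 4, and 3 without EV-recipient synoviocyte replicate 2 or 3. Without EV-recipient chondrocyte replicate 2 or 4 the 5p arm did not pass the filter and has no value. Depth limits all statements on EV-recipient chondrocyte replicate 1 and EV-recipient synoviocyte replicates 3 and 4.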
